A study of Mus musculus with 7 samples.

Results

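Expression of 10 genes that fibroblasts of connective tissue are known for was followed in luminal cells sorted from mouse prostates: the small leucine-rich proteoglycans Dcn, Bgn, Aspn, Lum, Fmod, Prelp and Ogn, the large proteoglycan Vcan, the receptor gene Pdgfra and the lipocalin gene Apod. The genes were chosen by name, with earlier results of these data known. Every probe set annotated to 1 of these symbols was taken, which gave 31 probe sets for 10 of the 18193 genes measured. Shares of all genes set beside counts of these genes are thus a description and not independent support. The samples were 4 arrays of T-ETV1 luminal cells (replicates A to D) and 3 arrays of wild-type luminal cells (WT, replicates A to C), measured on Affymetrix 430 2.0 arrays. T-ETV1 mice carry a cDNA of human ETV1, an ETS transcription factor, placed under the mouse's own Tmprss2 promoter, and WT mice are labelled wild type. Cells of both groups were sorted as negative for CD31, CD45, Ter119 and Sca1 and positive for CD49f. T-ETV1 cells were sorted as GFP positive in addition and WT cells were not, so the allele and the GFP gate cannot be told apart. The labels give no age and do not say how many animals gave 1 array. Values are intensities on a linear scale as deposited, 1 per probe set and array, and single arrays are listed in the order of their letters. Each gene is given by its brightest probe set unless another is named. The number of arrays limits the precision. Differences are T-ETV1 minus WT of log2(intensity + 16), a scale that understates the change of genes at low intensity.

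Small leucine-rich proteoglycans are secreted proteins whose curved core of leucine-rich repeats binds collagen and limits the width of its fibrils, and most of them carry chains of dermatan, chondroitin or keratan sulfate. Dcn, Bgn and Aspn form class I of the family, Lum, Fmod and Prelp belong to class II, and Ogn to class III. Vcan is a chondroitin sulfate proteoglycan that binds hyaluronan through its head and swells loose matrix. Pdgfra encodes a receptor tyrosine kinase for platelet-derived growth factors and marks fibroblasts in most organs. Apod encodes a secreted carrier of small lipids that fibroblasts, glia and some epithelia make. In the prostate such genes are known mainly from the stroma around the glands, outside the luminal layer.

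A pair of arrays stood apart before any comparison. WT C had the highest intensity of the 7 arrays for all 10 genes, where it was the highest array for 24.2% of all genes. T-ETV1 C was the highest T-ETV1 array for 8 of the 10 genes, against 35.9% of all genes. As a check of the labelled cell type, the 10 luminal marker genes measured, Krt8, Krt18, Pbsn and Cd24a among them, had a mean log2 level of 12.9 to 13.0 in T-ETV1 arrays and 12.9 to 13.0 in WT arrays. Median intensities of all probe sets were 48.5 to 62.9 in T-ETV1 arrays and 51.8 to 73.7 in WT arrays. For many differences and list medians that moved by over 1.5 times without a C array, the value without it is given as well. It is not given for all of them, so its absence does not mean that a difference was stable. The C arrays were singled out by their values, so p-values of fits without them are descriptive.

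All 10 genes had a lower mean in T-ETV1 than in WT luminal cells, against 55.6% of all genes (43.0% after quantile normalization and 32.2% after median centring, with 10 of 10 for these genes in both). The median of the 10 log2 differences was -1.95, while the median over all 18193 genes was -0.03. Without WT C the median of the 10 was -0.78. A difference of -1 or less was found for 9 of the 10 and for 4.67% of all genes, and one of -2 or less for 5 of the 10 and 1.11% of all genes. Without WT C these counts were 4 of the 10 (2.85% of all genes) and 3 of the 10 (0.566%). Without WT A 8 of the 10 were at -2 or less. The share of all genes at -2 or less was not computed for that fit, in which 58.7% of all genes were below 0. None of the 10 passed the test: limma gave 0 of 10 an adjusted p under 0.05, as it did for 0% of all genes, and the smallest adjusted p was 0.628, for Apod. At an unadjusted limma p under 0.05 there were 3, Apod, Prelp and Fmod, against 4.12% of all genes lower at that level (6.12% in either direction). Left out in turn, T-ETV1 C and WT C gave 0 of the 10 an adjusted p under 0.05, where 0.143% and 0.011% of all genes were lower at that level, and without both it was 0 of the 10 and 0.319% of all genes. A further fit treated T-ETV1 and WT arrays of the same letter as matched, which is an assumption, since the labels do not explain the letters. On arrays A to C with the letter as a replicate block, 6 of the 10 had an unadjusted p under 0.05. Of all genes 5.12% were lower at that level. The SE and p-values of all fits with this block rest on that assumption. With the block 0 of the 10 had an adjusted p under 0.05, and the smallest was 0.353. The 4 T-ETV1 arrays lay wholly below the 3 WT arrays for 1 of the 10, Apod, against 3.9% of all genes. In these bulk samples fewer cells of a type and less RNA per cell cannot be told apart.

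**Figure D1:**
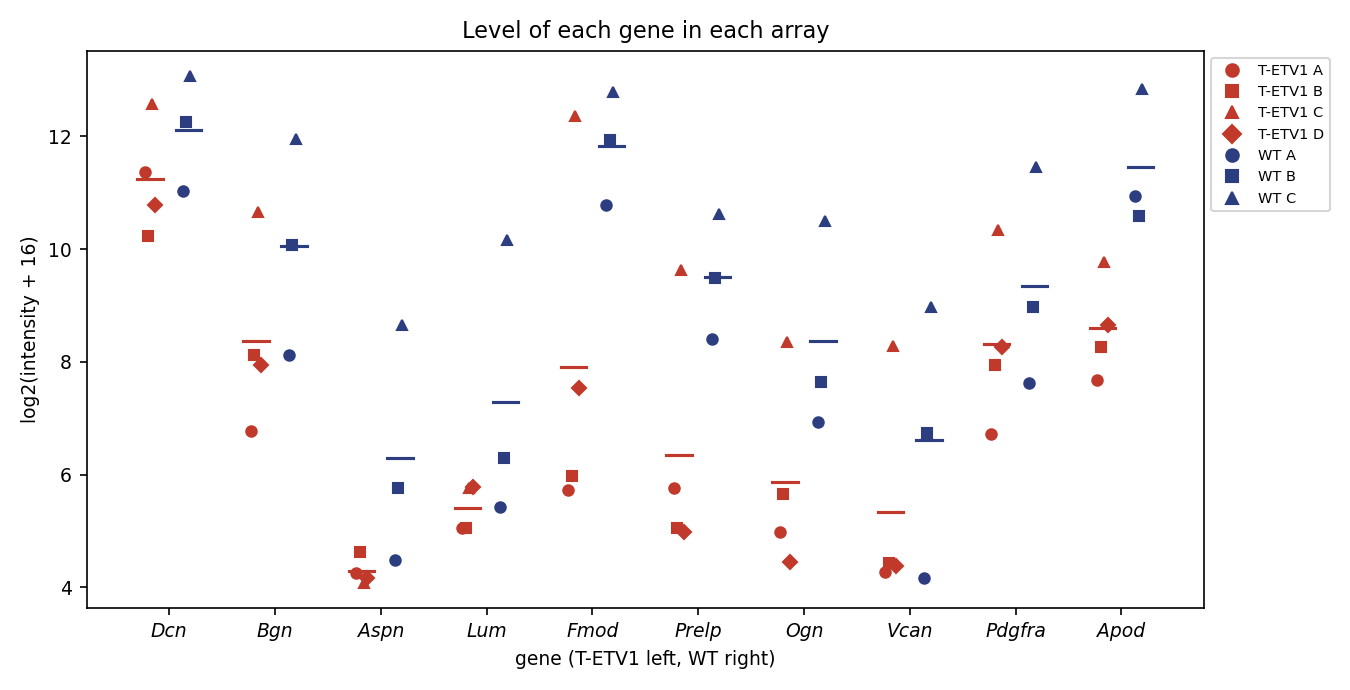
Level of each of the 10 genes as log2(intensity + 16) in each array, T-ETV1 in red on the left and WT in blue on the right of each gene; symbols give the replicate letter and bars the group means. Each gene is shown by its brightest probe set. Triangles, the C arrays, are the highest WT value for every gene and the highest T-ETV1 value for all but Aspn and Lum. Apod is the only one of the 10 whose groups do not overlap in these probe sets.

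Among the class II proteoglycans, Fmod (fibromodulin, which binds type I collagen and carries keratan sulfate) had the widest difference of the 10 genes. Its intensity was 37.3, 47.2, 5255 and 169 in the T-ETV1 arrays, against 1740, 3921 and 7045 in the WT arrays. Arrays A, B and D of T-ETV1 were thus low, and T-ETV1 C lay within the WT range. The mean log2 level was 7.90 ± 3.08 (SD, n = 4) in T-ETV1 and 11.84 ± 1.01 (SD, n = 3) in WT, a difference of -3.93 ± 1.63 (SE), with a 95% interval from -7.84 to -0.03 (limma adjusted p = 0.812). Only 1 of the 18193 genes had a more negative difference. Without T-ETV1 C the difference of Fmod was -5.42 (adjusted p = 0.0852), without WT C -3.46 and without both C arrays -4.94 (adjusted p = 0.0891). All 6 probe sets of Fmod gave differences between -3.93 and -3.34, and in each of them T-ETV1 A, B and D were the 3 lowest arrays and WT C the highest.

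Prelp, which encodes a proline and arginine-rich proteoglycan that anchors basement membranes to the tissue beneath, lies directly beside Fmod in the mouse genome. It had intensities of 38.2, 17.3, 776 and 15.6 in the T-ETV1 arrays, against 324, 699 and 1566 in the WT arrays. As for Fmod, T-ETV1 A, B and D were far below every WT array and T-ETV1 C was among them. The difference was -3.15 ± 1.23 (SE), with a 95% interval from -6.08 to -0.22 (limma adjusted p = 0.804), and -3.68 without both C arrays (adjusted p = 0.0620). Its second probe set gave -1.87. The 250 bases before the start site of each gene, from RefSeq's mouse build GRCm38.p6, are shown for this pair of neighbours with matches to the ETS core GGAA in capitals (the same letters read on the other strand included), since the transgene encodes an ETS factor. Fmod lies at chr1:134037004-134037253 on the plus strand and Prelp at chr1:133921402-133921651 on the minus strand.
Fmod: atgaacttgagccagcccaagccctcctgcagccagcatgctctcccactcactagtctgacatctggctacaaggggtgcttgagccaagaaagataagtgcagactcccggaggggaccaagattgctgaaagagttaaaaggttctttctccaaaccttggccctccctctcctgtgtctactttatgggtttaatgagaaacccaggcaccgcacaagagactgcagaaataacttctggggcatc
Prelp: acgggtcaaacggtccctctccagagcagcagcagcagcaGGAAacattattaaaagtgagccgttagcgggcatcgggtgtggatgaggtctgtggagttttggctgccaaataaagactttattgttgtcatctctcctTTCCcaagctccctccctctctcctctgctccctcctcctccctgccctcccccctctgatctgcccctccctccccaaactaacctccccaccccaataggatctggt
Fmod had 0 and Prelp 2 matches to GGAA, a motif that 93.4% of the 32851 mouse promoter windows of this length held with a median of 3 matches. Neither held the TATA form TATAAA, which 12.4% of windows did at any position on either strand. The longer ETS form CCGGAA, whose last letters are the first motif, was in 12% of windows and the AP-1 form TGANTCA in 6.75%, each searched on both strands, and neither promoter held them.

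Lum (lumican, a keratan sulfate proteoglycan that orders collagen fibrils in the cornea and skin) did not follow the other class II genes. Its intensity was 17.4, 17.1, 38.1 and 38.7 in the T-ETV1 arrays, against 26.8, 62.4 and 1129 in the WT arrays. WT C alone was high, and the other 6 arrays lay between 17.1 and 62.4. The difference was -1.88 ± 1.08 (SE), with a 95% interval from -4.46 to 0.70 (limma adjusted p = 0.866), and it was -0.44 without WT C.

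Of class I, Dcn (decorin, which binds collagen and holds TGF-beta) gave a strong signal in every array. Its intensity was 2641, 1184, 6122 and 1738 in the T-ETV1 arrays, against 2069, 4853 and 8586 in the WT arrays. The groups overlapped, with T-ETV1 A above WT A and T-ETV1 C above both WT A and WT B. With all 7 arrays the difference was the smallest of the 10, -0.87 ± 0.68 (SE), with a 95% interval from -2.49 to 0.75 (limma adjusted p = 0.889). Leaving out WT C gave -0.40 and leaving out T-ETV1 B gave -0.54, while it was -1.32 without T-ETV1 C and -1.42 without WT A. The other probe set of Dcn had intensities of 8.37, 8.44, 258 and 29.3 in the T-ETV1 arrays, against 51.8, 120 and 91.0 in the WT arrays, and a difference of -0.93.

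Bgn (biglycan, a close relative of decorin that also signals through Toll-like receptors) had intensities of 93.3, 262, 1610 and 231 in the T-ETV1 arrays, against 262, 1061 and 3964 in the WT arrays. Each group peaked in its C array, and T-ETV1 C was the one T-ETV1 array above WT A. The difference was -1.67 ± 1.16 (SE), with a 95% interval from -4.46 to 1.11 (limma adjusted p = 0.881), and the other 2 probe sets gave -2.10 and -1.94. Without WT C it was -0.72, without WT A -2.64 and without both C arrays -1.48.

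Aspn (asporin, the class I member that lacks a glycosaminoglycan chain) had intensities of 3.10, 8.79, 1 and 1.91 in the T-ETV1 arrays, against 6.34, 38.4 and 387 in the WT arrays. Only WT C lay clearly above the array medians, and T-ETV1 C was the lowest of all arrays. The difference was -2.02 ± 0.91 (SE), with a 95% interval from -4.18 to 0.15 (limma adjusted p = 0.822), and it was -0.84 without WT C. Its second probe set had 2.22, 9.07, 5.80 and 3.56 in the T-ETV1 arrays, against 16, 26.2 and 175 in the WT arrays, so that there the groups did not overlap.

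Ogn (osteoglycin or mimecan, a short member of class III) lies in the same gene cluster as Aspn, with Omd between them and Ecm2 beside Aspn. Its intensity was 15.7, 34.5, 312 and 5.87 in the T-ETV1 arrays, against 107, 185 and 1432 in the WT arrays. T-ETV1 A, B and D lay below every WT array, and T-ETV1 C lay between WT B and WT C. The difference was -2.50 ± 1.19 (SE), with a 95% interval from -5.34 to 0.34 (limma adjusted p = 0.835), and it was -1.43 without WT C. For this probe set it was nearly constant within the letters, at -1.95 for A, -1.99 for B and -2.14 for C. With the replicate block it was -2.03 ± 0.13 (SE, adjusted p = 0.353). The second probe set gave -0.87, and -0.25, -0.20 and -0.82 within the letters A, B and C.

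Vcan (versican) had intensities of 3.30, 5.55, 294 and 4.72 in the T-ETV1 arrays, against 1.89, 90.2 and 488 in the WT arrays. It was high in both C arrays and in WT B and low in the other 4 arrays, of which WT A was the lowest. The difference was -1.28 ± 1.43 (SE), with a 95% interval from -4.69 to 2.12 (limma adjusted p = 0.932). It was -0.11 without WT C, -2.26 without T-ETV1 C and -2.52 without WT A. Vcan had 8 probe sets. The brightest 3 gave differences of -1.28, -0.95 and -0.80, while the other 5 were under the median intensity of every array in all 7 arrays and gave differences between -0.12 and 0.06.

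Pdgfra had intensities of 89.3, 231, 1279 and 293 in the T-ETV1 arrays, against 183, 486 and 2789 in the WT arrays. Both C arrays were high and the groups overlapped, with T-ETV1 B and D above WT A. The difference was -1.03 ± 1.12 (SE), with a 95% interval from -3.71 to 1.64 (limma adjusted p = 0.929). It was 0.02 without WT C, -0.50 without T-ETV1 A, -1.71 without T-ETV1 C and -1.89 without WT A. Its probe sets disagreed on T-ETV1 C: in the other 2 that array had intensities of 12.8 and 1.62, against 222 and 36.5 in WT C. Within the letters the difference of the brightest probe set was -0.92, -1.02 and -1.12 for A, B and C, and with the replicate block it was -1.02 ± 0.13 (SE, adjusted p = 0.432). The other 2 probe sets were not constant, with 0.15, -1.40 and -3.05 in one and 0.24, 0.05 and -1.57 in the other.

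Apod (apolipoprotein D) was the one gene of the 10 with separate groups in its brightest probe set. Its intensity was 190, 291, 860 and 389 in the T-ETV1 arrays, against 1963, 1528 and 7293 in the WT arrays. Every T-ETV1 array, T-ETV1 C included, lay below every WT array. The mean log2 level was 8.6 ± 0.88 (SD, n = 4) in T-ETV1 and 11.46 ± 1.21 (SD, n = 3) in WT, a difference of -2.86 ± 0.68 (SE), with a 95% interval from -4.49 to -1.23. Limma gave an unadjusted p of 0.00449 and an adjusted p of 0.628. An exact two-sided permutation of the 7 arrays gave p = 0.0571, the smallest that 4 against 3 arrays allow, and 0.888 after adjustment over all genes. Within the letters the differences were -3.26, -2.33 and -3.06 for A, B and C, and without both C arrays it was -2.57 (adjusted p = 0.0783). The second probe set had 37.6, 3.73, 34.3 and 15.5 in the T-ETV1 arrays, against 53.0, 47.4 and 133 in the WT arrays, again with no overlap, and a difference of -1.27. Within the letters A, B and C this probe set gave -0.37, -1.68 and -1.57. The 250 bases before the start site of Apod lie at chr16:31314809-31315058 of GRCm38.p6 on the minus strand and are shown in the same way for comparison with Fmod.
Apod: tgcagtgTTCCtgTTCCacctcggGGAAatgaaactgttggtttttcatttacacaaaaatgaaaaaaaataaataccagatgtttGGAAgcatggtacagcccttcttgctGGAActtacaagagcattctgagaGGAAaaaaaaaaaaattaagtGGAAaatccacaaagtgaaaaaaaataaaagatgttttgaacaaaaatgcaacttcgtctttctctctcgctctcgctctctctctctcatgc
This window held 7 matches to GGAA on either strand and none to the other 3 motifs. The RefSeq table held a window for 8 of the 10 genes. Of these 7 held GGAA and 2, Aspn and Ogn, held the TATA form, while the longer ETS form and the AP-1 form were in 0. The TATA matches of Aspn and Ogn were counted on either strand. All of them lay far from the start site, towards the other end of the 250 bases, so no TATA box can be read from them.

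**Figure D2:**
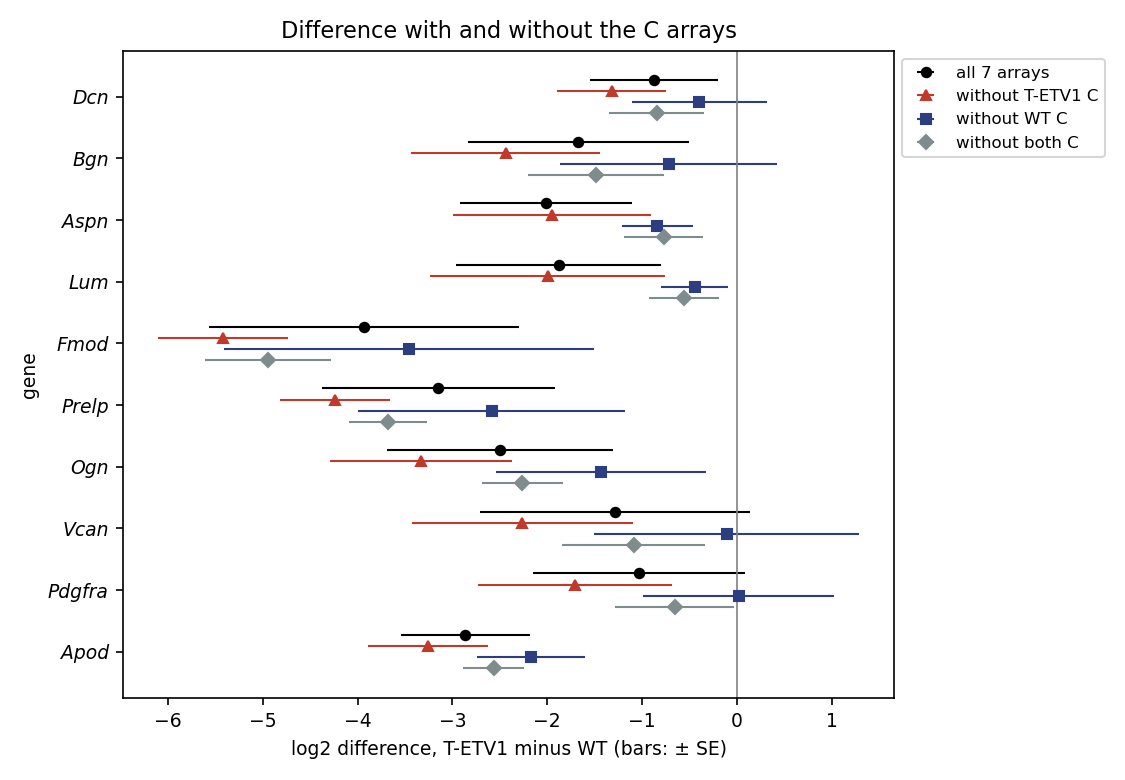
Log2 difference of each gene, T-ETV1 minus WT, in fits on all 7 arrays, without T-ETV1 C, without WT C and without both, with bars of ± SE; 0 is marked by the grey line. Fmod, Prelp, Ogn and Apod stay below -1 in all 4 fits, Aspn and Lum move to -0.84 and -0.44 without WT C, and Pdgfra reaches 0.02 there.

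The 10 genes thus fell into different patterns over the arrays, described by the root mean square distance between their log2 profiles after each was set to its own mean over the 7 arrays. The closest pairs were Bgn and Pdgfra, at 0.41, and Aspn and Lum, at 0.49, and the most distant was Aspn and Fmod, at 2.41. Neighbours in the genome were not always close: Fmod and Prelp lay at 0.95, Dcn and Lum at 1.17 and Aspn and Ogn at 1.23. T-ETV1 C stood above the mean of T-ETV1 A, B and D by 5.95 for Fmod, 4.36 for Prelp, 3.92 for Vcan, 3.33 for Ogn, 3.05 for Bgn, 2.69 for Pdgfra, 1.79 for Dcn and 1.57 for Apod on the log2 scale. For Lum it stood above by 0.46, and for Aspn the value was -0.26. WT C stood above the mean of WT A and B for all 10 genes, by 1.42 (Fmod) to 4.31 (Lum), where a gap of 1 or more was found for 10.5% of all genes. T-ETV1 A, B and D all lay below both WT A and WT B for 5 of the 10, Bgn, Fmod, Prelp, Ogn and Apod, and for 15.1% of all genes.

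**Figure D3:**
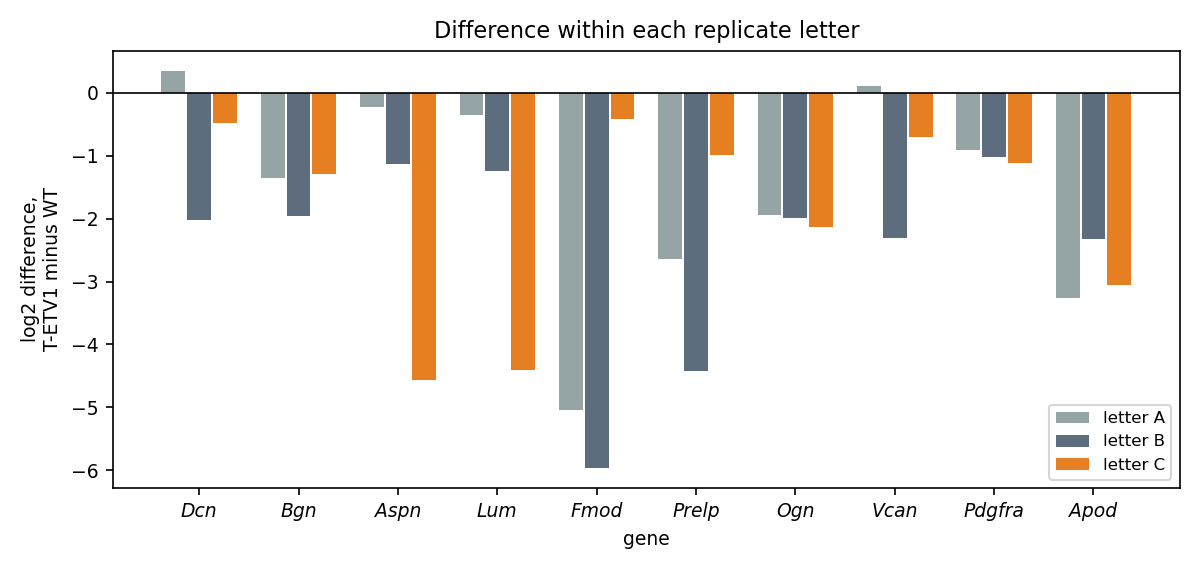
Log2 difference, T-ETV1 minus WT, between the arrays that share a replicate letter, for each gene and the letters A, B and C; bars start at 0 and each is the difference of 1 array pair. Each gene is shown by its brightest probe set. Ogn and Pdgfra have bars of like length in all 3 letters, and Bgn and Apod are below -1 in each letter. Aspn and Lum have their longest bar in C, Fmod and Prelp their shortest, and Dcn and Vcan are above 0 in A.

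**Figure D4:**
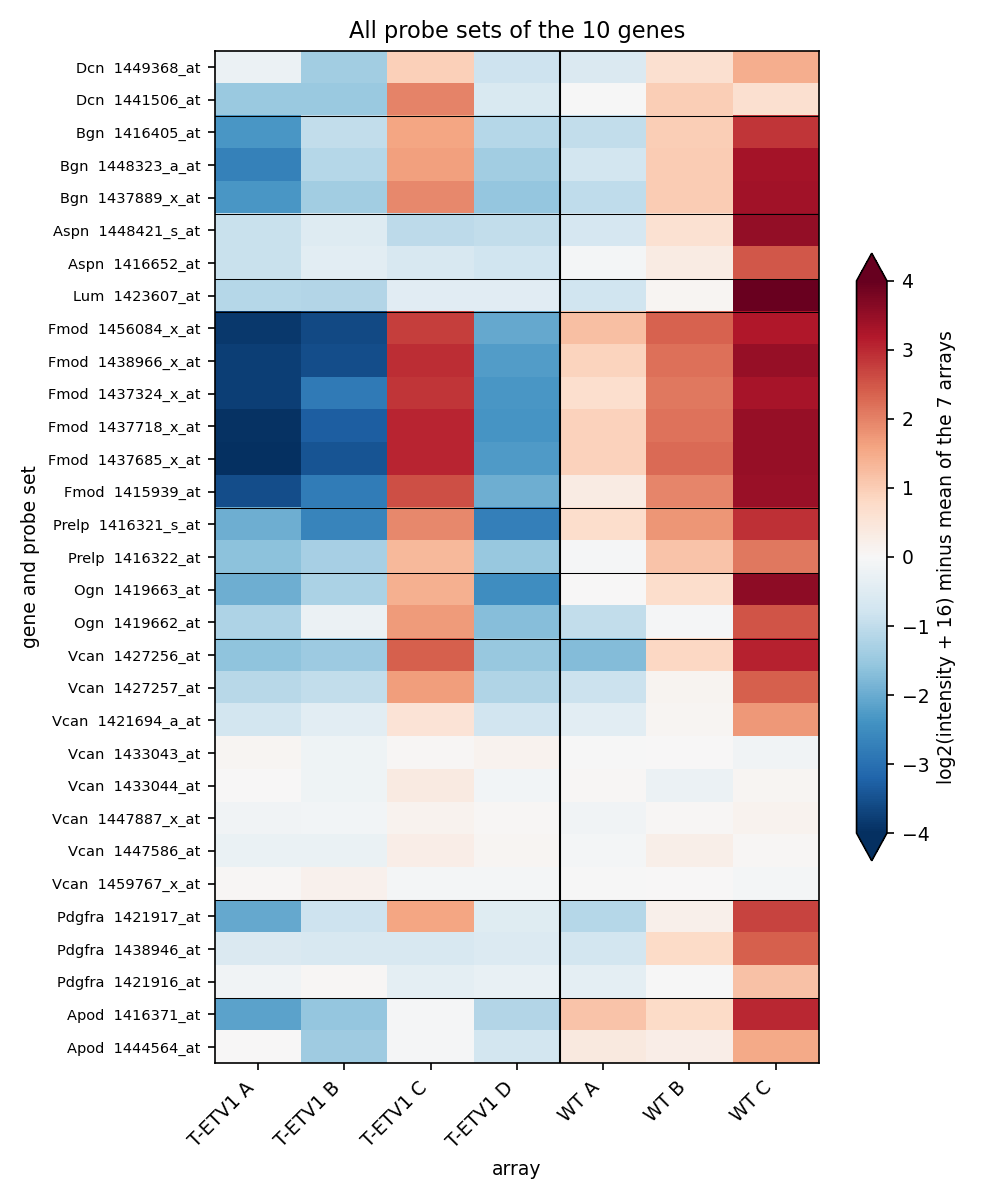
Every probe set of the 10 genes (31 rows) in the 7 arrays, T-ETV1 left of the line and WT right of it, coloured by log2(intensity + 16) minus the mean of that probe set over the 7 arrays. WT C is the highest array in 26 of the 31 probe sets, and the 5 dimmest Vcan probe sets vary little.

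Marker lists of other cell types were also lower in T-ETV1, and all but the Schwann cell and glial list were highest in WT C. Of all genes 55.6% were lower in T-ETV1, and 49.4% without WT C. Of 18 other fibroblast genes 17 were lower in T-ETV1, with a median difference of -1.79 (-0.52 without WT C). Their mean log2 level was 5.63 to 6.87 in T-ETV1 arrays and 6.65 to 9.94 in WT arrays. Of the first 4 genes of that list, all fibrillar collagen chains, Col3a1 was at -2.91 ± 0.84 (SE), Col1a2 at -2.36 ± 0.81 (SE), Col1a1 at -2.24 ± 0.95 (SE) and Col5a1 at -1.06 ± 1.20 (SE), and none passed. Without WT C, Col1a2 was at -1.41, Col1a1 at -1.38 and Col5a1 at -0.0058. Of 9 prostate basal cell genes, the keratins Krt5 and Krt14 among them, 9 were lower (median -1.73), and 7 without WT C (median -1.08; -2.70 without T-ETV1 C), with a mean log2 level of 6.46 to 10.2 in T-ETV1 and 8.28 to 10.7 in WT. Of 12 endothelial genes 12 were lower (median -1.77), and 10 without WT C (median -0.92), with levels of 5.57 to 7.28 in T-ETV1 and 6.80 to 8.93 in WT. Of 11 smooth muscle and pericyte genes 10 were lower (median -1.04), and 8 without WT C (median -0.47), with levels of 5.50 to 6.88 in T-ETV1 and 6.23 to 8.25 in WT. Of 12 leukocyte genes 10 were lower (median -0.73), but 1 without WT C (median 0.83; -1.40 without T-ETV1 C), with levels of 5.86 to 8.39 in T-ETV1 and 5.75 to 10.7 in WT. Of 7 Schwann cell and glial genes 7 were lower (median -0.56; -0.98 without T-ETV1 C), with levels of 6.36 to 7.97 in T-ETV1 and 7.67 to 7.89 in WT. Markers under the median intensity of every array throughout were 1 of the fibroblast list (Fap), 2 of the smooth muscle list (Cnn1 and Lmod1) and none of the other 4. With all 7 arrays no gene of these 6 lists had a limma adjusted p under 0.05. Without T-ETV1 C the endothelial Cldn5 and the glial Sox10 did, at 0.00181 and 0.0216. That fit drops the highest T-ETV1 array for both genes, so these p-values are descriptive. T-ETV1 C had intensities of 222 for Cldn5 and 207 for Sox10. The other T-ETV1 arrays had 13.3 to 15.9 and 4.12 to 5.22.

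The C arrays also differed from each other. The log2 difference, T-ETV1 C minus WT C, of the mean level was -3.07 for the other fibroblast genes, -2.32 for the leukocyte, -1.65 for the endothelial, -1.37 for the smooth muscle and pericyte, -0.51 for the basal, -0.04 for the luminal and 0.18 for the Schwann cell and glial genes. Among the 10 genes it was -4.57 for Aspn, -4.40 for Lum and -3.06 for Apod, next to -0.42 for Fmod, -0.49 for Dcn and -0.70 for Vcan. Ogn, Bgn, Pdgfra and Prelp lay between. The part that other cell types in the sort have in these values was not tested.

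**Figure D5:**
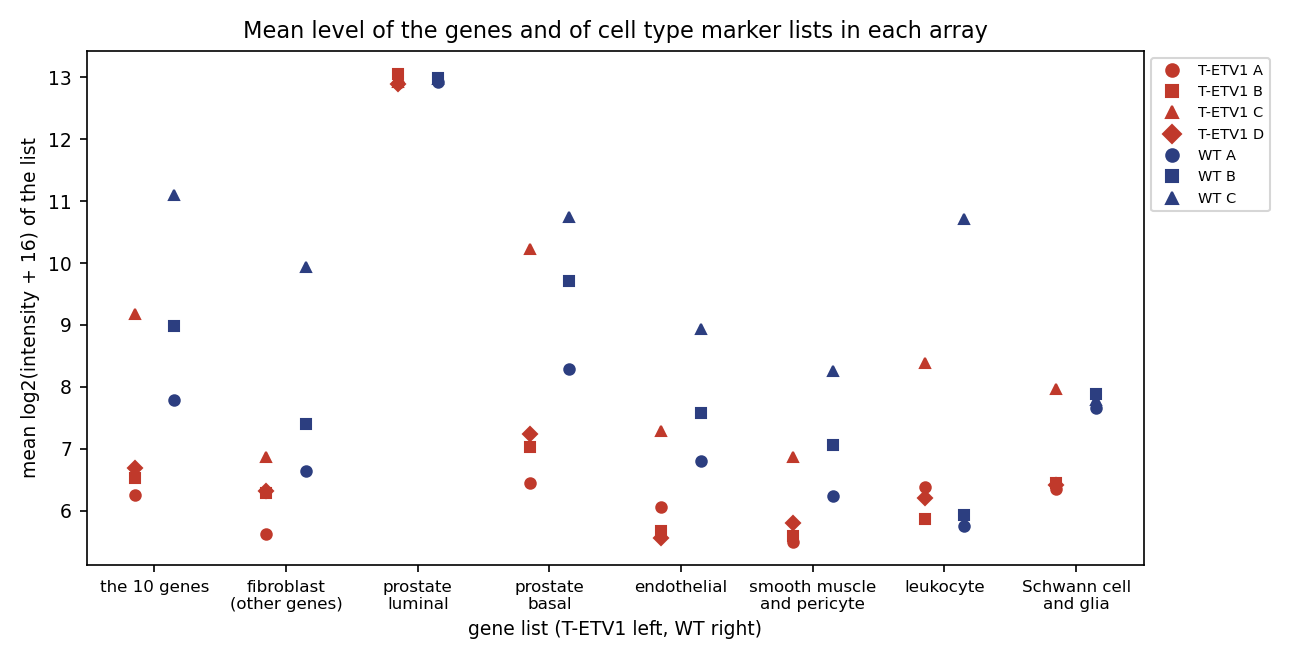
Mean log2(intensity + 16) of the 10 genes and of each cell type marker list in each array, T-ETV1 in red on the left and WT in blue on the right; symbols give the replicate letter. The luminal list stays near 13 in all arrays, and the C arrays are the highest of their group for the 10 genes and for the fibroblast, basal, endothelial, smooth muscle and leukocyte lists.

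Genes that make, bind or cut these proteoglycans were read from lists of known partners, and none had an adjusted p under 0.05 with all 7 arrays. Of all genes 55.6% were lower in T-ETV1, the share beside which each count of lower genes in these lists stands. Of 8 other small leucine-rich proteoglycan genes 6 were lower (median -0.18, unadjusted p under 0.05 in 0). The neighbours of members were dim: Omd, the osteoadherin gene between Aspn and Ogn, had 6.55, 4.58, 13.5 and 5.78 in the T-ETV1 arrays, against 3.52, 18.3 and 172 in the WT arrays. Epyc, the epiphycan gene of the Dcn and Lum cluster, had 5.96, 4.5, 6.83 and 4.97 in the T-ETV1 arrays, against 4.62, 12.5 and 97.5 in the WT arrays. Both were highest in WT C, as Lum and Aspn were. Kera and Ecm2, of the same 2 clusters, were under 20 in all 7 arrays.

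Of 10 proteases and their enhancers 9 were lower (median -1.35, and -0.84 without WT C), against 55.6% of all genes. At an unadjusted limma p under 0.05 there were 3 of them, against 4.12% of all genes. Pcolce, the enhancer of the procollagen C-proteinase, had 30.6, 63.7, 88.4 and 18.2 in the T-ETV1 arrays, against 137, 191 and 1056 in the WT arrays, with no overlap (difference -2.42 ± 0.74, SE; limma adjusted p = 0.741; -1.56 without WT C). Adamts4, which cleaves lecticans, was at -2.32 ± 0.76 (SE), Adamts5, of the same function, at -1.78 ± 0.57 (SE) and Adamts1 at -1.71 ± 0.78 (SE). Without WT C, Adamts5 was at -1.10 and Adamts1 at -1.11. Pcolce is also 1 of the 18 fibroblast genes above. Without T-ETV1 C, Adamts9, a further lectican protease, was at -2.44 (limma adjusted p = 0.0216), against -1.58 with all arrays. That fit drops the highest of all arrays for Adamts9, T-ETV1 C at 1267, so this p-value is descriptive. The other T-ETV1 arrays had 89.2 to 129, against 577 to 699 in the WT arrays.

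Of 15 genes of hyaluronan, lecticans and link proteins 9 were lower, against 55.6% of all genes. Their median was -0.12, which became 0.02 after median centring and -0.35 without T-ETV1 C. Hapln4, a link protein, had 402, 307, 293 and 365 in the T-ETV1 arrays, against 184, 180 and 131 in the WT arrays, and was the 1 gene of that list with separate groups (0.99 ± 0.17, SE; adjusted p = 0.581). Has3, a hyaluronan synthase, was at 1.19 ± 0.51 (SE) and the matrix protein Fbln2, a versican ligand, at -1.40 ± 0.71 (SE), or -0.54 without WT C. The hyaluronan receptor Lyve1 was at -3.10 ± 1.40 (SE), and at -4.45 without T-ETV1 C (limma adjusted p = 0.0216). That fit drops the highest of all arrays for Lyve1, T-ETV1 C at 2423, so this p-value is descriptive. The other T-ETV1 arrays had 30.6 to 71.1, against 936 to 1740 in the WT arrays.

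Enzymes that build the sugar chains were read next. Of 23 genes of chondroitin and dermatan sulfate synthesis 15 were lower, against 55.6% of all genes. After median centring 9 of the 23 were lower, against 32.2% of all genes. Their median was -0.10, which became 0.04 after median centring and 0.02 without WT C (-0.15 without T-ETV1 C). At an unadjusted limma p under 0.05, 3 were lower and 1 was higher, against 4.12% of all genes lower at that level (6.12% in either direction). Chst14, the dermatan 4-O-sulfotransferase, was at -1.07 ± 0.25 (SE; limma adjusted p = 0.628), with T-ETV1 arrays of 111 to 154, against WT arrays of 210 to 440. The chain-initiating enzyme Csgalnact1 was at -1.31 ± 0.48 (SE) and the linkage enzyme B3galt6 at 0.56 ± 0.18 (SE). The sulfotransferase Chst15 was at -1.64 ± 0.67 (SE), with a limma adjusted p of 0.0427 without both C arrays. That fit drops the highest array of each group for Chst15, so this p-value is descriptive. Of 8 keratan sulfate genes 5 were lower (median -0.09, and 0.05 after median centring), with the sulfotransferase Chst1 at -1.83 ± 0.83 (SE; -1.16 without WT C).

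Of 6 other genes of platelet-derived growth factors and receptors 5 were lower (median -0.67, and -0.21 without WT C), against 55.6% of all genes. Pdgfrb, the receptor of pericytes and fibroblasts, had 12.6, 4.86, 8.51 and 13.8 in the T-ETV1 arrays, against 67.8, 91.9 and 305 in the WT arrays (difference -2.47 ± 0.45, SE; limma adjusted p = 0.581). It was thus low in T-ETV1 C, where the brightest probe set of Pdgfra was high. Of 13 receptors and growth factors that small proteoglycans bind 11 were lower (median -0.34, -0.12 without WT C, unadjusted p under 0.05 in 0), and of 9 lipocalin genes with the Apod receptor Bsg 6 were lower (median -0.12, -0.24 without WT C and 0.02 after median centring). Bsg was at -0.07 and the lipocalin Lcn2 at -0.48.

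Genes outside the 10 with the most similar profile over the 7 arrays were sought among the 4279 genes whose SD was at least 0.5, by the same distance, as a description. For Apod they were Ebf1 at 0.18, Sparcl1 at 0.32 and Isl1 at 0.33, where the SD of Apod itself was 1.79. For Fmod they were Pkp1 at 0.39, Scn7a at 0.48 and Slco4a1 at 0.50 (SD of Fmod 3.08), and for Prelp Fgl2 at 0.26, Calcrl at 0.31 and Aqp1 at 0.34. For Lum they were Ctla2a at 0.21, Htra3 at 0.33 and Cyp1b1 at 0.34, and for Aspn Wt1 at 0.27, Rian at 0.29 and Cygb at 0.34. For Ogn they were Tgfbi at 0.25, Flrt2 at 0.28 and Aebp1 at 0.29, and for Bgn Adamtsl1 at 0.32, Bmp4 at 0.35 and Edaradd at 0.39. Dcn was nearest to Gpc1 at 0.16, Nectin1 at 0.20 and Peli2 at 0.21, Pdgfra to Dapk2 at 0.22, Col4a3 at 0.42 and Spry4 at 0.45, and Vcan to Chst11 at 0.34, Vit at 0.37 and Ptgis at 0.38.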

How the data were processed

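Per the labels' protocols, RNA of sorted luminal cells was amplified with a NuGEN kit before hybridisation to Affymetrix 430 2.0 arrays. The authors deposited linear intensity values of 45037 probe sets for each of the 7 arrays. How the authors summarised probes and scaled the arrays is not given in the sources used here, and no detection calls were used. Probe sets with 1 gene symbol in the platform annotation (34945) were kept and symbols updated by Entrez ID where the RefSeq table of GRCm38.p6 held it (34741). The probe set with the highest mean stood for a gene, which gave 18193 genes.

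All genes were tested together with limma 3.58.1 in R 4.3.3 on log2(intensity + 16), with no covariate, default eBayes and Benjamini-Hochberg adjustment over all genes at 0.05. The fit was tested on simulated data. Replicate letters were taken from the labels. Deviations from the group means correlated at 0.281, 0.217 and 0.356 for the A, B and C arrays, above the limit of 0.1 for pairing. T-ETV1 D and WT A, of different letters, also passed that limit at 0.187, so the rule does not single out arrays that share a letter. Nothing in the labels says what a letter stands for. P-values measure the spread between these arrays.

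The members and lists were chosen with earlier results of these data known. Named were all 10 members, up to 4 genes of each partner list with the smallest p and up to 4 of a marker list in list order. The genes of the same genomic clusters and the 3 genes nearest to each member were named too. Further genes were named after their values were seen. Bsg was named as the Apod receptor. Adamts9, Cldn5 and Sox10 were named for their adjusted p without T-ETV1 C, and Fap, Cnn1 and Lmod1 for their low intensity. The promoters shown, of Fmod, Prelp and Apod, were also chosen after values were seen. The alternatives were quantile normalization, median centring, pseudocounts of 1 and 64, leaving out the lowest 30% of genes, averaging the probe sets of 1 gene, fits of single probe sets, an intensity trend in eBayes, the replicate block, each array left out in turn and both C arrays left out.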

Additional observations from a re-analysis of the deposited data

Results flagged for a closer look

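In the 4 T-ETV1 arrays, T-ETV1 C lay far from the others for 2 of the 10 genes. For Vcan its gap to the next array was 0.960 of the whole range of the group on the log2(intensity + 16) scale (intensities of 294 in T-ETV1 C, 3.30 to 5.55 in T-ETV1 A, B and D). For Prelp it was 0.833 of the range on the same log2 scale (intensities of 776 in T-ETV1 C, 15.6 to 38.2 in the others). Both gaps exceed Dixon's 95% critical value for 4 samples, which chance passes in about 1 of 20 groups. The WT group of 3 arrays was not tested in this way, and the share of all genes that pass this rule was not computed.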

How the results depend on the processing

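No member was called under any of the alternatives run; the smallest adjusted p was 0.0620 (Prelp, without both C arrays). The count of all genes called was 0 with all 7 arrays, 0 to 27 when single arrays were left out (27 without T-ETV1 C, 7 without WT C) and 68 without both C arrays; those lower in T-ETV1 were 0.143%, 0.011% and 0.319% of all genes. All 10 genes stayed lower in every alternative except that Pdgfra reached 0.0164 without WT C (its range over single arrays left out was -1.89 to 0.0164), and 3 dim Vcan probe sets gave 0.0633, 0.0586 and 0.0293. The median of the 10 was between -2.87 (without WT A) and -0.78 (without WT C) when arrays were left out, -1.29 without both C arrays, -1.80 after quantile normalization, -2.57 with a pseudocount of 1 and -1.45 with one of 64. Median centring moved the median of all genes to 0.11 and that of the 10 to -1.81. With the replicate block, fitted on arrays A to C without T-ETV1 D, it was -1.99, and 0 genes were called; the block changed no call. The members at an unadjusted p under 0.05, beside the share of all genes lower at that level, numbered 3 with all arrays (4.12%), 6 with the block (5.12%), 4 without T-ETV1 C (7.23%), 4 without WT A (5.17%), 4 without both C arrays (6.18%), 4 after median centring (2.70%) and 4 with a trend (4.34%). They numbered 1 without each other single array (2.78% to 3.28%), and 2 with a pseudocount of 64 (3.8%) or without the lowest 30% of genes (4.14%), a filter that left 9 members (Aspn was removed). Members at -2 or less numbered 5 with all arrays, 3 without WT C, with a pseudocount of 64 or with averaged probe sets, and 8 without WT A. The share of all genes at that level was 1.11% with all arrays and 0.566% without WT C, and was not computed for the other fits. Signals under the array medians, as for Aspn and 5 Vcan probe sets, limit what can be read at the low end.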
